A study of Mus musculus with 36 samples.

Results

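The Fc gamma receptor genes of the mouse were followed here in blood: Fcgr1, Fcgr2b, Fcgr3 and Fcgr4, and Fcer1g, which encodes the signalling chain that the activating receptors share. They were chosen by gene symbol, as all probe sets of the array whose annotated symbol is 1 of these names. This gave 10 probe sets of 5 genes, among 45101 probe sets on the array and 18193 genes with a set of their own symbol. The samples were peripheral blood of 18 untreated male mice aged 8 weeks, 3 of each of 6 inbred strains: C57Bl/6J, 129S1/ImJ, A/J, FVB/NJ, C3H/HeJ and DBA/2J. Cardiac blood was taken into EDTA and kept in Trizol. Each mouse gave a pair of arrays: 1 of RNA passed through the GLOBINclear kit, which captures and removes alpha and beta globin mRNA, and 1 of whole RNA. There were thus 12 groups of 3 arrays (6 strains in each of the preparations), all on Affymetrix arrays, and no group was treated or genetically modified. The labels' protocol writes 129S1/SvImJ where the strain label has 129S1/ImJ, which is used below.

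Fc gamma receptors bind the constant part of IgG and let white blood cells respond to antibody-coated particles and immune complexes. Fcgr1, Fcgr3 and Fcgr4 encode activating receptors that reach the cell surface and signal with the Fc receptor gamma chain encoded by Fcer1g, whose ITAM motif recruits the kinase Syk. Fcgr2b encodes the inhibitory receptor, whose ITIM motif recruits the phosphatase SHIP (Inpp5d), and it is the Fc gamma receptor of B cells. Monocytes and neutrophils carry activating receptors, NK cells carry the product of Fcgr3, and Fcer1g also serves the collagen receptor of platelets (Gp6) and the high-affinity IgE receptor of basophils and mast cells.

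Promoter sequences of all 5 genes are printed because these genes belong to one receptor system, and the members called between strains below were called in different strains. Fcgr2b, Fcgr3, Fcgr4 and Fcer1g lie on chromosome 1 and Fcgr1 on chromosome 3. Each sequence is the 120 bases before the annotated start, on the strand of the gene, from RefSeq on the build GRCm38.p6. Capitals mark matches on either strand to AGAGGAA, 1 form of the site bound by the myeloid factor PU.1. Other forms of the site were not marked.
Fcgr1 (chr3:96293970-96294089, minus strand): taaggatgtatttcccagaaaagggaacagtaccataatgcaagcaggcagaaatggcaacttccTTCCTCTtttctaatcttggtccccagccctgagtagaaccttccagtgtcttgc
Fcgr3 (chr1:171059395-171059514, minus strand): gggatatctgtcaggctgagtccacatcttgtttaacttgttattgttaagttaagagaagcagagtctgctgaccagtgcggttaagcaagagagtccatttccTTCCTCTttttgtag
Fcgr4 (chr1:171018806-171018925, plus strand): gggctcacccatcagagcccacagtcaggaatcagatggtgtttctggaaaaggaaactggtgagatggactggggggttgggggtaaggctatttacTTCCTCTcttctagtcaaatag
Fcgr2b (chr1:170976072-170976191, minus strand): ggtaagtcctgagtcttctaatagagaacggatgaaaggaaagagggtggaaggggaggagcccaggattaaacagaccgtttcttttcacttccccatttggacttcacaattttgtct
Fcer1g (chr1:171234350-171234469, minus strand): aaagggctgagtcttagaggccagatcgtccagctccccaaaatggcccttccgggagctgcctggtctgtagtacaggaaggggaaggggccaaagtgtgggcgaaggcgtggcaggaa

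The 7 letters AGAGGAA were found on the strand opposite to the gene in Fcgr1, Fcgr3 and Fcgr4. They lay 55 to 49 bases before the start of Fcgr1, 15 to 9 before that of Fcgr3 and 22 to 16 before that of Fcgr4. They were in 3 of the 5 windows and in 4.06% of 27025 RefSeq promoter windows of the same length. Fcgr3 has 2 annotated starts 9 bases apart, and the 7 letters were in the window of 1 of them. The pattern was chosen after the sequences had been read, and a match describes letters only. A window without these 7 letters may hold another form of the site.

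Values are log2 expression summaries per probe set as deposited, so a difference of 1 is a doubling, and levels of different probe sets were not compared. Non-control probe sets whose mean over the 36 arrays was above the median of such means (2.89) were tested, which left 22518. Of the member probe sets, 5 passed: the only sets of Fcer1g (mean over all arrays 8.54), Fcgr3 (4.66) and Fcgr4 (3.11) and 2 of the 5 sets of Fcgr2b (3.79 and 3.04). The lowest of those inside was the Fcgr2b set at 3.04. The nearest outside was another Fcgr2b set at 2.42, followed by the Fcgr1 sets at 2.38 and 2.34, all far below the limit and among the dimmest 16.1% of probe sets. Fcgr4 passed through its values in GLOBINclear RNA of some strains only, and the Fcgr2b set at 3.04 passed through GLOBINclear RNA (mean 3.22) and not whole RNA (2.87), so their differences are given as descriptions; with no filter the same calls were made for both sets.

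The arrays of GLOBINclear RNA had 3802 to 5278 probe sets at a log2 value of 5 or more, against 2196 to 3122 on the arrays of whole RNA. The 5 globin probe sets averaged 12.16 ± 0.32 in GLOBINclear RNA and 13.83 ± 0.21 in whole RNA (SD over 18 arrays each). The 3'-minus-5' difference of the actin and Gapdh control sets, a measure of RNA integrity and of labelling length, averaged 1.17 ± 0.20 in GLOBINclear RNA and 0.13 ± 0.18 in whole RNA; it moves with every difference between the preparations given below, and its part in them was not tested. Blood markers of several cell types were present at high values, among them Pf4 of platelets (12.88 in GLOBINclear and 12.45 in whole RNA), S100a9 of neutrophils (9.10 and 7.61), Cd79b of B cells (6.86 and 4.74) and Cd3d of T cells (6.85 and 4.96), so the samples hold the mixture that the label of peripheral blood names.

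Fcer1g, the shared gamma chain, separated C57Bl/6J from every other strain, in both preparations. In GLOBINclear RNA the 3 C57Bl/6J mice had 10.27, 10.52 and 10.79. The other strains had 8.57, 8.38 and 8.64 in A/J, 8.96, 9.10 and 8.92 in C3H/HeJ, 9.15, 9.22 and 9.37 in DBA/2J, 9.46, 8.93 and 9.38 in FVB/NJ, and 9.05, 8.67 and 8.88 in 129S1/ImJ. Every C57Bl/6J mouse lay above all 15 other mice, and no A/J mouse reached the lowest mouse of any other strain. The share of all probe sets that separate strains in this way was not counted, here or for the members below.

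In whole RNA, Fcer1g had 8.67, 9.69 and 8.98 in C57Bl/6J. The other strains had 6.98, 7.07 and 6.48 in A/J, 8.07, 7.83 and 7.08 in C3H/HeJ, 7.10, 7.93 and 7.37 in DBA/2J, 7.99, 7.92 and 8.60 in FVB/NJ, and 7.44, 8.10 and 7.74 in 129S1/ImJ. C57Bl/6J again did not overlap any other strain, here by a margin of less than its own spread (lowest C57Bl/6J mouse 8.67, highest of the other mice 8.60). The A/J mice lay below the lowest mouse of every other strain, the nearest being a C3H/HeJ mouse at 7.08.

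limma's F test over the 6 strains called Fcer1g in GLOBINclear RNA (adjusted p = 5.83e-05) and in whole RNA (adjusted p = 0.0173). Over all probe sets tested, 11.2% were called in GLOBINclear RNA and 4.32% in whole RNA. The call in whole RNA was lost without replicate 1, 2 or 3 of every strain (adjusted p = 0.173, 0.197 and 0.400), without A/J mouse 3 (0.0541) and without C57Bl/6J mouse 2 (0.0751). Over the mean of each mouse's arrays, Fcer1g averaged 9.82 in C57Bl/6J and 8.28 in the other 5 strains, a difference of 1.54 ± 0.17 (SE; 95% interval 1.17 to 1.91) or 2.9-fold, with a limma adjusted p of 4.91e-05. In that contrast 3.87% of all probe sets were called higher. A/J was lower, at 7.69 against 8.71 in the other 5 strains (difference -1.02 ± 0.17, limma adjusted p = 0.00339; 1.69% of all probe sets were called lower in A/J). The A/J contrast had an adjusted p of 0.0671 on whole RNA alone and of 0.0568 to 0.174 when replicate 1, 2 or 3 of every strain was left out, while the C57Bl/6J contrast was called in 32 of 32 settings. The remaining strains differed from the others by -0.27 in 129S1/ImJ to 0.21 in FVB/NJ and passed no test. Since every sample was whole blood, more cells of a type and more RNA per cell cannot be told apart in these or the following values. Fcer1g, Fcgr3 and Fcgr4 each had only 1 probe set. Probe sequences were not at hand, so sequence differences between strains under the probes were not tested for any of these values.

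Among the 15 pairs of strains, Fcer1g was called in 6, with limma p-values adjusted over all probe sets and all 15 pairs, a setting in which 3.39% of all tests were called. C57Bl/6J was in 5 of them: it exceeded DBA/2J by 1.46 (adjusted p = 0.00122), FVB/NJ by 1.11 (0.00998) and 129S1/ImJ by 1.5 (0.000959), while A/J and C3H/HeJ fell below it by 2.13 (3.73e-05) and 1.49 (0.00103). The sixth was A/J minus FVB/NJ, at -1.02 (adjusted p = 0.0168). That pair was called in 22 of 32 alternative settings: it was lost with both quantile normalizations (adjusted p = 0.0689 and 0.063), with spike-in scaling (0.0567), on whole RNA alone (0.117), without any 1 replicate number, and without A/J mouse 3 (0.0714) or FVB/NJ mouse 1 (0.0504) or 3 (0.0767). C57Bl/6J minus FVB/NJ was called in 27 of 32, and was lost on whole RNA alone (0.389), without any 1 replicate number, and without C57Bl/6J mouse 2 (0.0569). The other pairs with C57Bl/6J were called in 30 to 32 of the 32. The order of the strain means was C57Bl/6J, FVB/NJ, DBA/2J, C3H/HeJ, 129S1/ImJ and A/J, and between C3H/HeJ, DBA/2J and 129S1/ImJ the means (8.33, 8.36 and 8.31) were closer than the spread between mice.

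**Figure D1:**
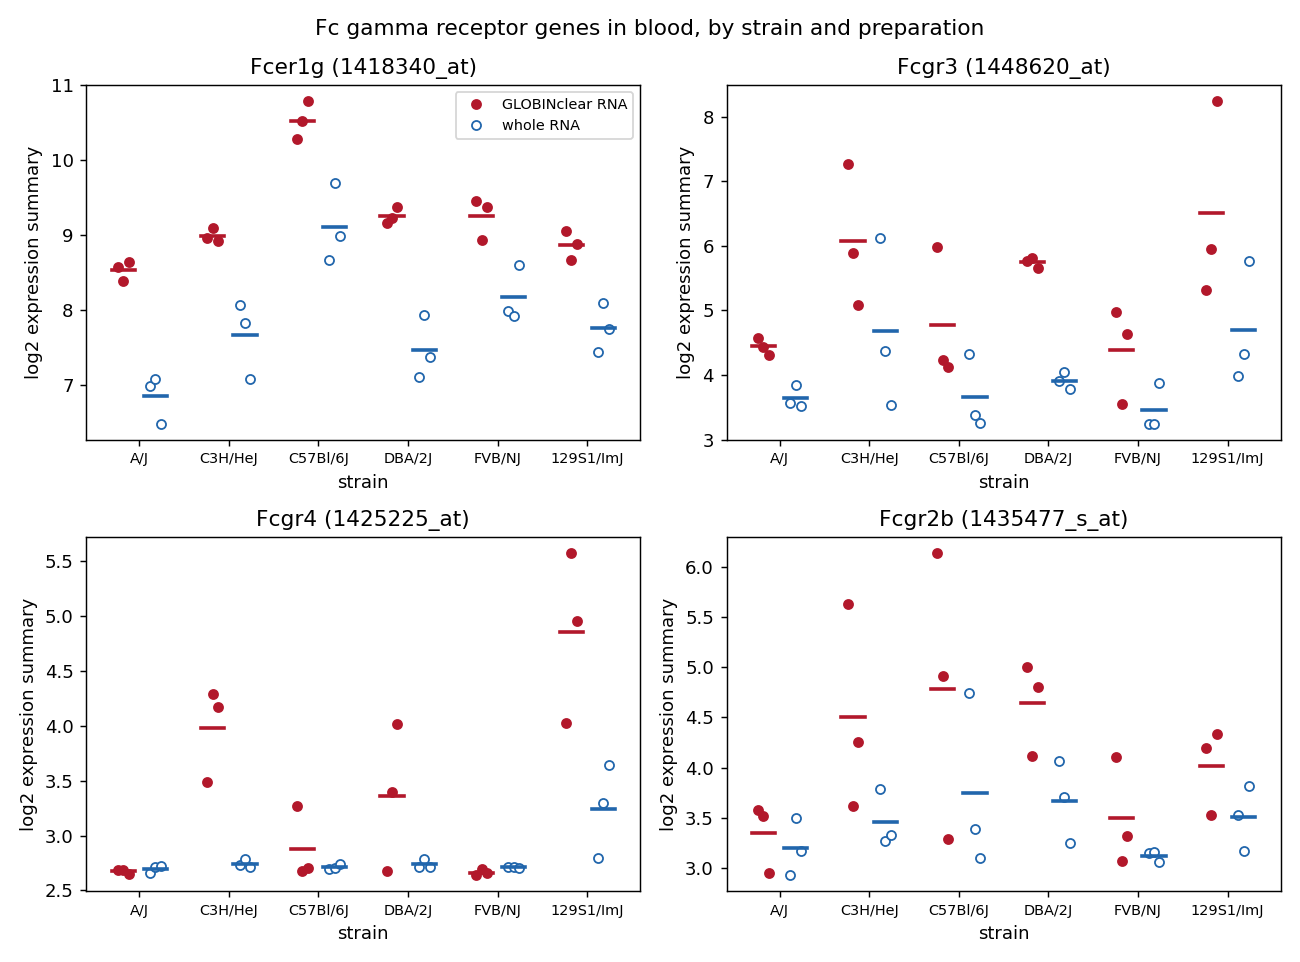
Log2 expression summary (y axis) of Fcer1g, Fcgr3, Fcgr4 and Fcgr2b in the blood of 3 mice of each of 6 strains (x axis). Filled points are GLOBINclear RNA, open points whole RNA, and lines are means of 3 mice. Fcer1g is highest in C57Bl/6J in both preparations, Fcgr4 is highest in 129S1/ImJ, and Fcgr3 and Fcgr2b spread widely within strains.

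Markers of platelets, which use Fcer1g with the collagen receptor, also differed between strains, in part in the same ones. Of 12 platelet and megakaryocyte genes tested, 6 were higher in C57Bl/6J than in the other 5 strains (median difference over the list 0.74), among them Vwf, the von Willebrand factor (1.19, limma adjusted p = 0.0100), and Treml1, a receptor of platelet granules (1.04, adjusted p = 0.00457); over all genes tested, 4.39% were called higher. In A/J, 3 of the 12 were lower (median -0.61; 2.08% of all genes), or 6 without C57Bl/6J mouse 1, and in FVB/NJ, where Fcer1g was not called, 4 were higher (median 0.60; 2.85% of all genes). In 129S1/ImJ, 6 of the 12 were lower (median -0.70; 3.14% of all genes), while Fcer1g differed by -0.27 and was not called.

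The mean of the platelet list in GLOBINclear RNA was 10.26, 10.96 and 10.93 in the C57Bl/6J mice and ran between 9.54 and 10.90 in the mice of the other strains. The C57Bl/6J mouse at 10.26 had an Fcer1g value of 10.27, above FVB/NJ mice whose list means were 10.78 and 10.90 and whose Fcer1g values were 9.46 and 9.38. The marker lists of neutrophils and of monocytes and macrophages had 0 genes called in C57Bl/6J against the other 5 (11 and 15 tested, medians -0.60 and 0.04). The B cell and T cell lists also had 0 called (12 and 14 tested, medians 0.66 and 0.28). Of 11 NK genes, 1 was higher (median 0.40). Of 18 effectors of phagocytosis and the NADPH oxidase, 5 were higher and 1 lower (median 0.41). Over all genes, 4.39% were called higher and 2.15% lower. The part of platelet RNA in the C57Bl/6J difference of Fcer1g was not tested.

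Fcgr4, an activating receptor carried by neutrophils and monocytes, was highest in 129S1/ImJ. In GLOBINclear RNA it had 4.02, 5.58 and 4.96 in 129S1/ImJ, 3.49, 4.29 and 4.17 in C3H/HeJ, and 2.68, 3.40 and 4.02 in DBA/2J. In C57Bl/6J it had 3.27, 2.68 and 2.70, and in A/J (2.65 to 2.69) and FVB/NJ (2.64 to 2.69) all mice lay below the array medians of 2.78 to 2.85. The 129S1/ImJ and C3H/HeJ mice overlapped, and 2 C57Bl/6J mice and 1 DBA/2J mouse were at the level of A/J and FVB/NJ.

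In whole RNA, Fcgr4 had 2.80, 3.30 and 3.64 in 129S1/ImJ and 2.66 to 2.78 in all 15 mice of the other strains. The 129S1/ImJ mice did not overlap the rest, though 1 of them barely cleared the highest of the others, and the other 15 values were below the array medians of 2.86 to 2.94. A value there carries background, so it bounds the level of Fcgr4 rather than measuring it, and differences from it are compressed.

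The F test called Fcgr4 in GLOBINclear RNA (limma adjusted p = 0.00234) and not in whole RNA (0.104). Fcgr4 passed the filter through the strains where it was high, so its calls here and in the pairs below are descriptions. Over the mean of each mouse's arrays, Fcgr4 averaged 4.05 in 129S1/ImJ and 2.92 in the other 5 strains, a difference of 1.13 ± 0.16 (SE; 95% interval 0.78 to 1.48; limma adjusted p = 0.00067; 2.76% of all probe sets were called higher). No other strain passed the test, with C3H/HeJ at 0.31 (adjusted p = 0.817) and A/J and FVB/NJ at -0.50 each (0.134 and 0.129). The 129S1/ImJ contrast was not called without replicate 2 or replicate 3 of every strain (adjusted p = 0.0551 and 0.0582), nor was the F test in GLOBINclear RNA (0.17 and 0.10). Without 129S1/ImJ mouse 1 the F test in whole RNA also called Fcgr4 (adjusted p = 0.000126), and A/J, C57Bl/6J and FVB/NJ were then called lower than the other strains (adjusted p = 0.0105, 0.0285 and 0.00915).

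Of the 15 pairs, 4 were called for Fcgr4, each with 129S1/ImJ: A/J minus 129S1/ImJ was -1.36 (limma adjusted p = 0.00152), C57Bl/6J minus 129S1/ImJ -1.25 (0.00304), DBA/2J minus 129S1/ImJ -1.0 (0.0151) and FVB/NJ minus 129S1/ImJ -1.36 (0.00152). C3H/HeJ minus 129S1/ImJ was -0.69 and did not pass (adjusted p = 0.111). The DBA/2J pair was called in 23 of 31 alternative settings and was lost with spike-in scaling (0.073), without 129S1/ImJ mouse 2 (0.0602) or 3 (0.0568), without DBA/2J mouse 1 (0.0713), and on whole RNA alone (0.102). The other 3 pairs were called in 28 of 31, and all 4 were lost without replicate 2 or 3 of every strain and on whole RNA alone. Without 129S1/ImJ mouse 1, C3H/HeJ minus 129S1/ImJ was called as well (-1.0, adjusted p = 0.00196).

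Some neutrophil markers were higher in 129S1/ImJ as well, and 1 mouse set most of that count. Of 11 neutrophil genes tested, 3 were higher in 129S1/ImJ than in the other 5 strains (median over the list 1.59; 3.26% of all genes were called higher): Anxa1 (2.26, limma adjusted p = 0.0458) and the granule proteases Mmp8 (1.59, 0.0331) and Mmp9 (1.54, 0.0209). Without 129S1/ImJ mouse 3 the count was 1, Mmp8, and the median over the list was 0.62. The mean of the neutrophil list in GLOBINclear RNA was 5.94, 6.07 and 8.82 in the 129S1/ImJ mice and 4.65 to 6.18 in the mice of the other strains. In GLOBINclear RNA of 129S1/ImJ the mouse with the list mean of 8.82 had 4.96 for Fcgr4, and the mouse at 6.07 had 5.58. In whole RNA the mouse with the list mean of 8.82 had the highest Fcgr4 value of its strain, 3.64 against 2.80 and 3.30. The part of neutrophil number in the Fcgr4 difference was not tested.

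**Figure D2:**
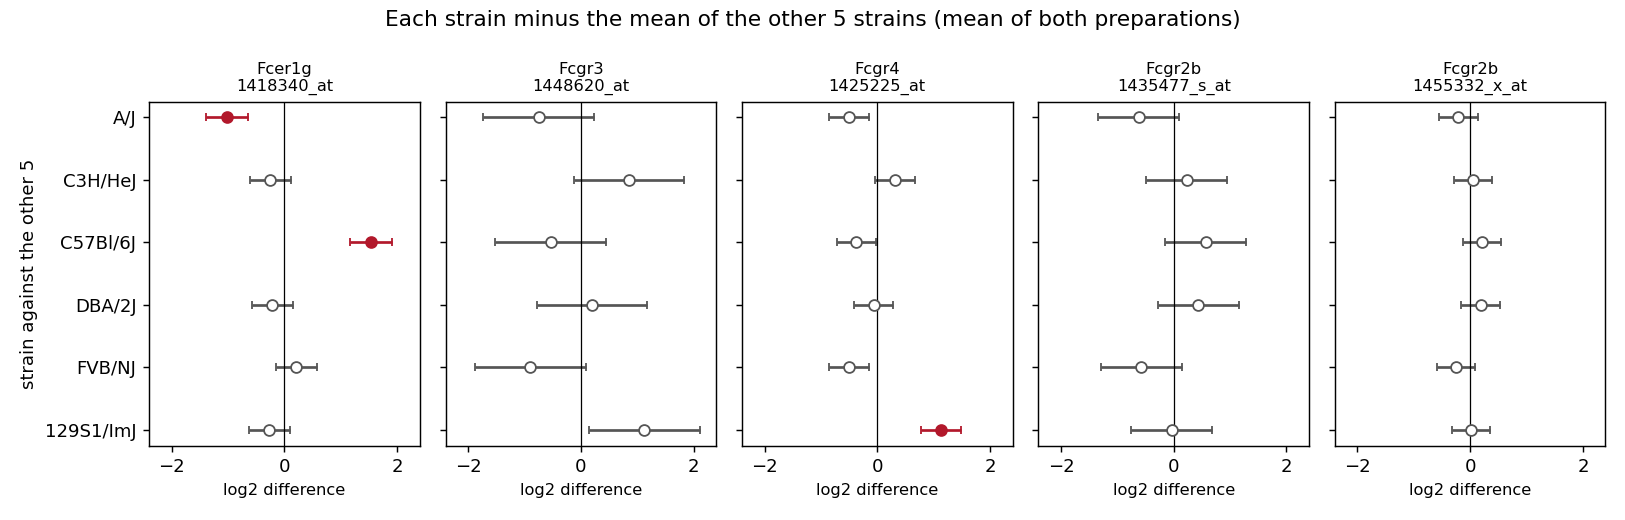
Difference of each strain from the mean of the other 5 strains (x axis, log2, mean of both preparations) for the 5 tested probe sets. Points are limma estimates from 3 mice of the strain and 15 of the others, and bars are 95% intervals. Filled points passed the adjusted threshold: C57Bl/6J (1.54) and A/J (-1.02) for Fcer1g and 129S1/ImJ (1.13) for Fcgr4. Fcgr4 passed the filter through the strains where it was high, so its call is a description.

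Fcgr3, the low-affinity activating receptor of monocytes, neutrophils and NK cells, spread widely between mice of some strains and was not called between strains. In GLOBINclear RNA it had 5.32, 5.96 and 8.24 in 129S1/ImJ, 7.26, 5.89 and 5.08 in C3H/HeJ, and 5.99, 4.24 and 4.12 in C57Bl/6J. It had 5.77, 5.81 and 5.66 in DBA/2J, 4.58, 4.44 and 4.31 in A/J, and 4.97, 3.54 and 4.63 in FVB/NJ. Single mice of 129S1/ImJ, C3H/HeJ and C57Bl/6J stood well above their strain mates, whereas the DBA/2J mice were close together and lay above all A/J and FVB/NJ mice.

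The same mice were high for Fcgr3 in whole RNA: 129S1/ImJ mouse 3 had 5.76 against 3.99 and 4.32 in its strain mates, C3H/HeJ mouse 1 had 6.12 against 4.38 and 3.54, and C57Bl/6J mouse 1 had 4.33 against 3.38 and 3.26. The values of A/J (3.52 to 3.84), DBA/2J (3.79 to 4.04) and FVB/NJ (3.25 to 3.87) were closer together. Fcgr3 passed the F test in neither preparation (limma adjusted p = 0.160 in GLOBINclear and 0.662 in whole RNA), and none of its 6 contrasts of a strain with the others or its 15 pairs was called. The largest contrast was 129S1/ImJ, at 5.60 against 4.48 in the other 5 strains (1.12 ± 0.46, 95% interval 0.14 to 2.11, adjusted p = 0.215). With both 129S1/ImJ mouse 3 and C57Bl/6J mouse 1 left out, a choice made after these values had been seen, the F test in GLOBINclear RNA gave an adjusted p of 0.0410.

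The mice that were high for Fcgr3 were also high for the monocyte list. The mean of its 15 tested genes in GLOBINclear RNA was highest in C3H/HeJ mouse 1 (6.87), 129S1/ImJ mouse 3 (6.56) and C57Bl/6J mouse 1 (6.25), and ran from 4.57 to 5.86 in the other 15 mice. In whole RNA its mean ran from 3.98 to 5.66. The pattern was not particular to the monocyte list. In GLOBINclear RNA, 129S1/ImJ mouse 3 had the highest neutrophil list mean (8.82), and C57Bl/6J mouse 1 and C3H/HeJ mouse 1 had high B cell list means (6.57 and 6.36). C57Bl/6J mouse 1 also had the most probe sets at 5 or more in GLOBINclear (5278) and whole RNA (3122). The part of monocyte number in the spread of Fcgr3 was not tested.

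Fcgr2b, the inhibitory receptor, had the set 1435477_s_at as its brightest, whose suffix means that its probes may match more than 1 transcript. In GLOBINclear RNA it had 6.14, 4.91 and 3.29 in C57Bl/6J, 5.64, 3.61 and 4.25 in C3H/HeJ, 5.0, 4.11 and 4.80 in DBA/2J, 4.19, 3.52 and 4.33 in 129S1/ImJ, 4.11, 3.06 and 3.32 in FVB/NJ, and 3.58, 3.51 and 2.95 in A/J. In whole RNA its range was 2.92 to 4.75, with C57Bl/6J mouse 1 again the highest. Most strains overlapped, with the C57Bl/6J mice alone running from 3.29 to 6.14 in GLOBINclear RNA. The DBA/2J mice lay above all A/J mice there, and narrowly above all FVB/NJ mice (lowest DBA/2J mouse 4.114, highest FVB/NJ mouse 4.106). In whole RNA the FVB/NJ mice (3.06 to 3.15) lay below all DBA/2J and C3H/HeJ mice, and narrowly below all 129S1/ImJ mice (highest FVB/NJ mouse 3.155, lowest 129S1/ImJ mouse 3.171).

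The F test of 1435477_s_at gave a limma adjusted p of 0.409 in GLOBINclear RNA and 0.969 in whole RNA. No contrast or pair was called. The other tested set, 1455332_x_at, has a suffix which means that its probes may also match other sequences. It showed most of the same mice high: 4.74 in C57Bl/6J mouse 1, 4.05 in C3H/HeJ mouse 1, and 3.77 and 3.83 in DBA/2J mice 1 and 3. All other GLOBINclear samples had 2.70 to 3.61, among them C57Bl/6J mouse 2 at 3.13, which had 4.91 on 1435477_s_at. The values of 1455332_x_at in whole RNA were 2.79 to 2.92. Its F test gave adjusted p-values of 0.719 in GLOBINclear RNA and above 0.99 in whole RNA. Over the 18 GLOBINclear arrays these sets had a Pearson r of 0.896.

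The mice highest for Fcgr2b were among those highest for the B cell list. Its mean in GLOBINclear RNA was 6.57 in C57Bl/6J mouse 1, 6.05, 6.40 and 6.49 in the DBA/2J mice and 6.36 in C3H/HeJ mouse 1, and was between 4.12 and 6.12 in the rest. The part of B cell number in the spread of Fcgr2b was not tested. Against the other 5 strains, 2 of its 12 tested genes were higher in DBA/2J (median 0.74; 1.00% of all genes were called higher), including Cr2, the complement receptor of B cells (0.63, limma adjusted p = 0.000412). Fcgr2b was at 0.44 in that contrast and was not called.

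The remaining members stayed near the bottom of the scale. The Fcgr2b set 1435476_a_at, which reads alternative transcripts of the gene, had 4.06 in C57Bl/6J mouse 1, 3.51 in C3H/HeJ mouse 1 and 2.74 in 129S1/ImJ mouse 3, and it was between 1.90 and 1.97 in all whole RNA. The set 1451941_a_at reached 3.20 in C57Bl/6J mouse 1 and had a median of 2.14 in GLOBINclear RNA and 2.20 in whole RNA. The set 1447622_at ran between 2.28 and 2.41 in GLOBINclear RNA and between 2.43 and 2.61 in whole RNA. Fcgr1, the high-affinity receptor of monocytes and macrophages, had 2.22 to 2.31 in GLOBINclear RNA and 2.32 to 3.01 in whole RNA on 1417876_at, and 2.3 to 2.64 in GLOBINclear and 2.3 to 2.39 in whole RNA on 1436625_at. The value of 3.01 belonged to a single A/J mouse. No level of Fcgr1 above background can be read from these sets, and without the filter none of these 5 sets had an F test past the threshold (the lowest limma adjusted p was 0.0825, for 1436625_at in GLOBINclear RNA).

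Globin depletion was compared within each mouse, as GLOBINclear minus whole RNA. All 5 tested member sets were higher after depletion, in a setting where 39.4% of all probe sets were called higher and 47.6% lower by limma with the mouse as a block, so the count of members says little by itself. When arrays were scaled to the spike-in controls instead, 22483 of 22496 called probe sets were higher, and the median over all tested sets was 2.03 in place of -0.05; a direction is therefore relative to the other genes on the array.

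Fcer1g was higher in 18 of 18 mice, by 0.58 to 2.15. The mean was 9.24 ± 0.66 in GLOBINclear RNA and 7.84 ± 0.80 in whole RNA (SD over 18 mice each), a difference of 1.40 ± 0.11 (SE) or 2.64-fold (limma adjusted p = 4.06e-10). With quantile normalization of all arrays the difference was 0.19 and the call was lost (adjusted p = 0.0563). By strain the effect was between 1.09 in FVB/NJ and 1.78 in DBA/2J, and the test of a difference between strains gave an adjusted p of 0.660.

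Fcgr3 was also higher in 18 of 18 mice, by 0.30 to 2.48. Its mean was 5.32 ± 1.16 in GLOBINclear RNA and 4.01 ± 0.79 in whole RNA, a difference of 1.32 ± 0.13 or 2.49-fold (limma adjusted p = 8.75e-09), and 0.65 with quantile normalization of all arrays, where the call was kept. The effect by strain ran from 0.80 in A/J to 1.83 in DBA/2J (adjusted p of the difference 0.290).

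The Fcgr2b set 1435477_s_at was higher in 16 of 18 mice, with a mean difference of 0.68 ± 0.13 (4.13 ± 0.89 in GLOBINclear and 3.45 ± 0.44 in whole RNA; limma adjusted p = 9.0e-05). Its set 1455332_x_at was higher in 10 of 18 mice, with a difference of 0.35 ± 0.12 (adjusted p = 0.0127), in a set that was tested through its GLOBINclear values; without replicate 1 of every strain it was 0.12 and not called (adjusted p = 0.196). Without the filter, 1435476_a_at differed by 0.34 (adjusted p = 0.0247) and 1451941_a_at by 0.01 (0.878), while 1447622_at and the Fcgr1 set 1417876_at were called lower in GLOBINclear RNA, by -0.10 (3.73e-08) and -0.14 (0.00108). The other Fcgr1 set, 1436625_at, differed by 0.03 (0.214). The array medians themselves were 2.78 to 2.85 in GLOBINclear and 2.86 to 2.94 in whole RNA.

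**Figure D3:**
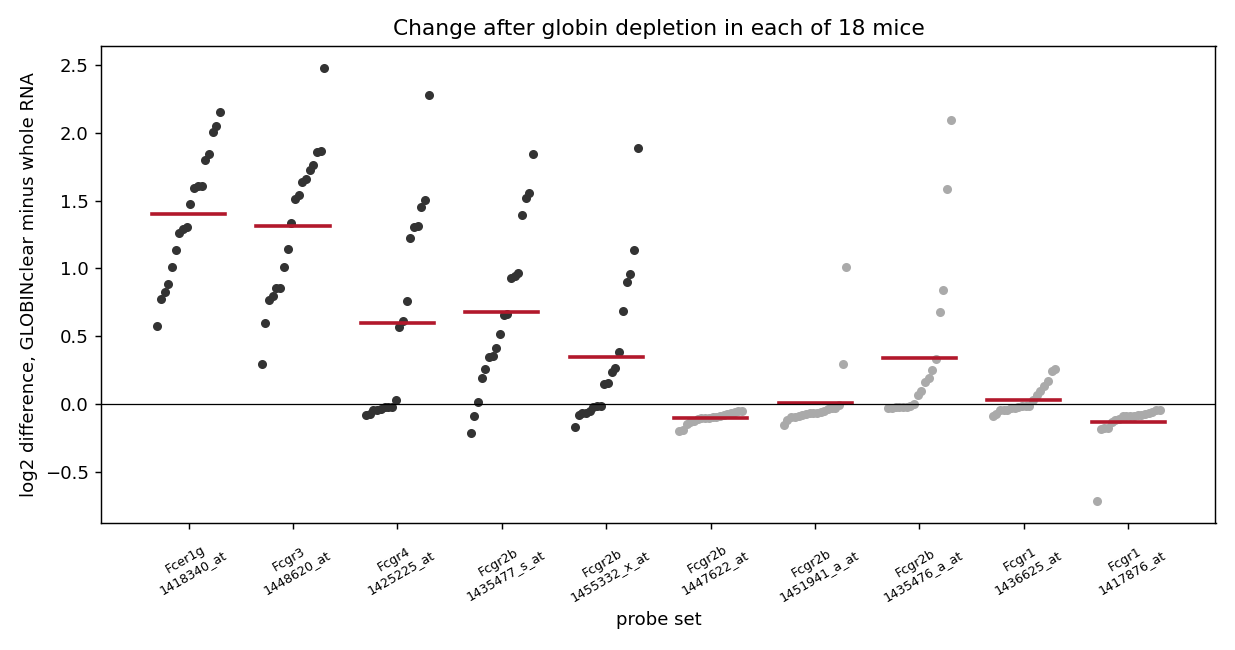
Log2 difference, GLOBINclear minus whole RNA (y axis), in each of 18 mice for all 10 member probe sets (x axis), sorted within a set. Red lines are means; black points are the 5 tested sets and grey points the 5 below the filter. All 18 mice lie above 0 for Fcer1g and Fcgr3, while 8 of 18 lie between -0.08 and 0 for Fcgr4.

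For Fcgr4 the difference between preparations was large in the strains with a measurable level and near 0 in the strains at the bottom of the scale. Its mean over all mice was 3.40 ± 0.91 in GLOBINclear and 2.81 ± 0.25 in whole RNA, a difference of 0.59 ± 0.16 (limma adjusted p = 0.00232), with 10 of 18 mice higher and a range of -0.08 to 2.28. The differences were 1.61 ± 0.22 in 129S1/ImJ (limma adjusted p = 3.41e-05), 1.24 in C3H/HeJ (0.000318) and 0.63 in DBA/2J (0.0295), against 0.17 in C57Bl/6J (0.518), -0.03 in A/J (0.934) and -0.05 in FVB/NJ (0.866). The test of the difference between strains gave an adjusted p of 0.0198, and 2.75% of all probe sets passed it. In A/J, FVB/NJ and 5 of the 6 C57Bl/6J arrays the values lay below the array medians, so an effect could not be seen on them, and the test cannot tell a strain's response to depletion from its level of Fcgr4. The call was lost with quantile normalization of all arrays (adjusted p = 0.0577) and without replicate 2 or replicate 3 of every strain (0.461 and 0.213).

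Genes that act with the receptors mostly changed the same way on depletion. Of 25 genes of ITAM signalling, 22 were higher in GLOBINclear RNA and 2 were lower (median 0.63), against 44.7% higher and 43.1% lower and a median of 0.04 over all 11353 genes. Syk, the kinase recruited by the gamma chain, had 6.97 in GLOBINclear and 5.0 in whole RNA (1.97 ± 0.07, limma adjusted p = 5.81e-15), and Prkcd, a protein kinase C, differed by 1.88 and Lat, an adaptor, by 1.60. Vav3 and Lat2 fell by 0.19 and 0.13. With quantile normalization of all arrays 16 of the 25 were called higher, with a median of 0.30. The median over all genes was then -0.07. The share of all genes called higher in that setting was not counted, here or for any list below.

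Of 11 genes of inhibitory signalling below Fcgr2b, 10 were higher and 0 lower (median 1.04). Inpp5d, the phosphatase recruited by Fcgr2b, differed by 1.60 ± 0.07 (limma adjusted p = 9.69e-14), Dok1, an adaptor, by 1.60 and Cbl, a ubiquitin ligase, by 1.92; Inppl1 did not pass (0.15, adjusted p = 0.0571). With quantile normalization of all arrays, 5 were called higher and the median was 0.12.

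Of 18 effectors of phagocytosis and the NADPH oxidase, 16 were higher and 1 lower (median 1.46). Was, which drives actin assembly, differed by 2.71 ± 0.12 (limma adjusted p = 6.51e-14), and Coro1a and Gsn, which also act on actin, by 1.93 and 1.46; Elmo1 fell by 0.25. With quantile normalization of all arrays, 11 were called higher and the median was 0.35.

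The other receptors changed less evenly. Of 7 further Fc receptor genes tested, 4 were higher and 1 lower (median 0.33): Fcmr, the IgM receptor, differed by 2.11 ± 0.07 (limma adjusted p = 3.19e-15) and Fcer2a, the low-affinity IgE receptor of B cells, by 1.11, while Pigr, the polymeric immunoglobulin receptor, fell by 0.14. Of 7 other receptors that signal through Fcer1g, 3 were higher and 2 lower (median 0.16). Clec4d, a C-type lectin, differed by 1.60 and Gp6 by 1.02, and Clec4n fell by 0.16. With quantile normalization of all arrays the median of this list was -0.01.

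Across strains, the F test in GLOBINclear RNA called 8 of the 25 ITAM genes, 2 of the 11 inhibitory genes, 9 of the 18 effectors, 4 of the 7 other Fc receptors and 1 of the 7 Fcer1g partners, against 12.3% of all genes. In whole RNA it called 2, 0, 3, 1 and 0, against 4.77% of all genes. Gp6, whose product needs Fcer1g on platelets, was lower in 129S1/ImJ (-0.92, limma adjusted p = 0.00655) and higher in FVB/NJ (0.70, 0.0474), and its difference in C57Bl/6J, 0.61, did not pass (0.0682). Ncf4, a subunit of the phagocyte oxidase, was higher in 129S1/ImJ, where Fcgr4 was (1.83, adjusted p = 1.99e-05), and lower in C57Bl/6J (-0.70, 0.0353; 2.15% of all genes were called lower there).

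Signalling and cytoskeletal genes also differed by strain. Pik3cg, the gamma catalytic subunit of phosphoinositide 3-kinase, had means of 4.80, 4.76 and 4.84 in GLOBINclear RNA of 129S1/ImJ, A/J and C3H/HeJ, and of 2.78, 2.96 and 2.56 in that of C57Bl/6J, DBA/2J and FVB/NJ (limma F test, adjusted p = 4.62e-06). Src was higher in FVB/NJ than in the other 5 strains by 0.79 (limma adjusted p = 2.46e-05) and lower in A/J and 129S1/ImJ (-0.47 and -0.30, adjusted p = 0.00256 and 0.0283). Fermt3, the integrin activator of platelets and leukocytes, and Arpc2, of the actin-branching complex, were higher in C57Bl/6J (0.94 and 0.98, adjusted p = 0.0193 and 0.00547) and lower in A/J (-1.25 and -1.08, adjusted p = 0.00486 each). Arpc2 was also lower in C3H/HeJ (-0.84, adjusted p = 0.0397), where Fcer1g was not called.

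**Figure D4:**
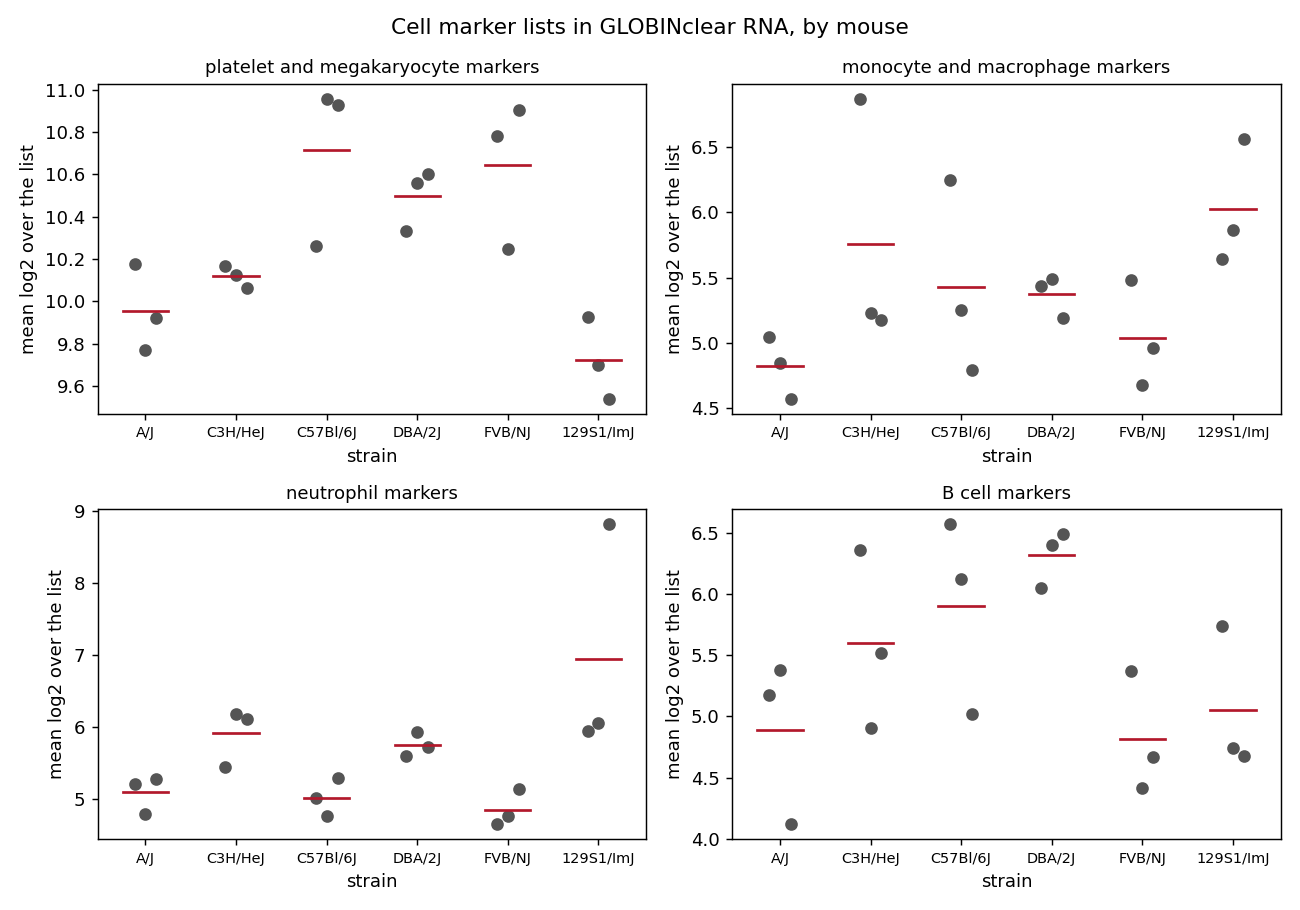
Mean log2 level of 4 marker lists (y axis) in GLOBINclear RNA of each mouse, by strain (x axis), with points for mice and lines for means of 3 mice. The platelet list is lowest in 129S1/ImJ, the neutrophil list has a single 129S1/ImJ mouse at 8.82, and the monocyte list has single high mice in C3H/HeJ (6.87), 129S1/ImJ (6.56) and C57Bl/6J (6.25).

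All marker lists but 1 had more genes higher than lower on depletion. The counts of higher and lower genes were 12 and 1 of 15 for monocytes and macrophages (median 0.69), 10 and 0 of 11 for neutrophils (1.39), 11 and 0 of 12 for B cells (1.40), 7 and 1 of 11 for NK cells (0.78), and 9 and 3 of 14 for T cells (0.80). They were 11 and 1 of 12 for platelets (1.15) and 11 and 2 of 13 for red cell genes other than globins (1.49). The exception was the list of eosinophils, basophils and mast cells, the cells of the IgE receptor, with 1 higher and 4 lower of 6 (median -0.14). That list was dim, with means of 3.10 to 3.63 in GLOBINclear and 3.09 to 3.37 in whole RNA. Member sets below the filter differed by a like amount (-0.10 for 1447622_at and -0.14 for 1417876_at), so no loss of these cells' RNA can be read from it. With quantile normalization of all arrays the counts higher were 9 for monocytes and macrophages (median 0.45), 8 for neutrophils (0.46), 9 for B cells (0.49), 7 for NK cells (0.38), 8 for T cells (0.45), 7 for platelets (0.17), 9 for red cell genes (0.29) and 2 for the last list (-0.07).

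The genes most like each member over the 18 GLOBINclear arrays were found by Pearson's r, as a description across mice that fall into 6 strains. For Fcgr3 they were Tgfbi (0.972), Mgst1 (0.949) and Tyrobp (0.948), the last an ITAM adaptor of myeloid and NK cells. For Fcgr2b they were Ctss (0.905), Ighm (0.902), the heavy chain of IgM, and Icam2 (0.899). For Fcgr4 they were Slfn1 (0.853), Pglyrp1 (0.826), a granule protein of neutrophils, and Tmem160 (0.823), and for Fcer1g Actg1 (0.937), Hpse (0.933), the heparanase found in platelets, and Atg7 (0.931). The brightest Fcgr1 set, near the floor, was most like Cep290 (0.849), AU022252 (0.826) and Carm1 (0.815).

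No member was among the 3 genes most like another. Between members the values were 0.545 for Fcgr3 and Fcgr2b (0.623 after taking out strain means), 0.658 for Fcgr4 and Fcgr3 (0.097 after taking out strain means), -0.174 for Fcer1g and Fcgr3, and -0.274 for Fcer1g and Fcgr4. The brightest Fcgr2b set may match more than 1 transcript, and whether it also reads Fcgr3 was not tested.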

How the data were processed

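The deposited values are log2 expression summaries, 1 for each probe set and array; their range pointed to the log2 scale. GCRMA, MAS5 and affy are named, per the submitters' processing notes, without versions or roles. How arrays of both preparations were normalized is not known here. Values were used as deposited, all columns were used (0 unused), and 64 control probe sets were left out. Members, gene lists and motifs were chosen with earlier results of these data known; a second promoter motif that was searched is not reported here. Genes were named from the platform's annotation, only for probe sets with 1 symbol (34945 sets; 932 had several and 9160 none), and a gene in a list is its brightest set over all arrays.

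Fits across all 22518 probe sets used limma 3.58.1 in R 4.3.3, with eBayes, an intensity trend and Benjamini-Hochberg adjustment at 0.05, after a check on simulated data. Globin depletion was fitted with a block for the mouse, alone and by strain. Strains were compared by F tests in each preparation and, over each mouse's mean of its arrays, by each strain against the mean of the other 5 and by all 15 pairs. The study's design text states that both arrays of a number come from 1 mouse; their deviations from the group means correlated at a median of 0.379 (-0.08 to 0.664), against 0.0425 for mice of 1 number across strains, so numbers pair preparations and not strains. Named genes were all member sets, the 3 genes most like each member's brightest set, and in each list up to 3 with the largest statistic for depletion and up to 3 with the lowest p of the strain F test; other names (such as Vav3, Lat2, Inppl1 and Elmo1) were chosen after their values were seen. Alternatives were 4 other scalings, 2 other filters, no intensity trend, block choices, each preparation alone and leaving out replicates. Hybridization dates were not known. The number of arrays limits the precision.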

Additional observations from a re-analysis of the deposited data

Results flagged for a closer look

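Fcgr4 (1425225_at) was marked for a closer look because the effect of globin depletion on it differed between strains by a test of that difference itself (limma, interaction of preparation and strain, adjusted p = 0.0198). The effects were 1.61 in 129S1/ImJ, 1.24 in C3H/HeJ and 0.63 in DBA/2J, and between -0.05 and 0.17 in FVB/NJ, A/J and C57Bl/6J, where GLOBINclear and whole RNA alike lay near or below the array medians. An effect could not be seen in those 3 strains, 1 C57Bl/6J mouse excepted, and Fcgr4 passed the filter through the strains where it was high, so the difference in effect is not separate from the difference in level. The other 4 tested member sets had adjusted p-values of 0.290 to 0.692 in that test. Groups of 3 mice are too small to be examined for single outlying samples in this way.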

How the results depend on the processing

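Under the alternatives tried no called member result changed direction; differences that were not called, such as C3H/HeJ minus 129S1/ImJ for Fcgr3 (-1.35 to 1.01), did in some. With the stricter filter (75th percentile), the member sets called were 3 for depletion, 0 for its difference between strains, 1 for strains in GLOBINclear RNA and 6 of the tests of pairs, against 5, 1, 2 and 10 as reported, since 3 member sets were then tested; 8 were called for depletion with no filter, 2 of the 3 added ones lower. Depletion called 10162 probe sets of all with the stricter filter and 38578 with none, against 19587. Quantile normalization of all arrays gave 0 member sets and 366 of all probe sets for the difference between strains, against 1 and 619, and spike-in scaling gave 1672 for strains in GLOBINclear RNA, against 2530. On whole arrays alone, 2 member tests of pairs were called, 4065 over all probe sets (against 11455), and 1806 for each strain against the other 5 (against 4976). Leaving out mice or replicate numbers gave these ranges. Depletion called 18815 to 19564 probe sets and 4 to 5 members. Its difference between strains called 119 to 718 and 0 to 1. Strains gave 805 to 3086 and 1 to 2 in GLOBINclear RNA. In whole RNA they gave 195 to 1136 and 0 to 2. Each strain against the other 5 gave 1444 to 6319 and 1 to 6 member contrasts, against 3 reported, and pairs gave 3652 to 14309 and 1 to 15. Without the mouse as a block, depletion called 19455 probe sets and 5 members, and its difference between strains 497 and 1; with the replicate number as a block across strains, which pairs nothing by the design, the counts were 2366 and 2 for GLOBINclear RNA, 940 and 1 for whole RNA, 4715 and 3 for each strain, and 10990 and 10 for pairs, so the block changed no member count. With 3 mice per strain and Fcgr1 and much of Fcgr4 at the bottom of the scale, smaller strain differences of these members were not detectable. Leaving out C57Bl/6J mouse 1 and 129S1/ImJ mouse 3, together or each in turn for the neutrophil and platelet lists, was chosen after seeing the data.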

Other observations

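The neighbours of these genes on chromosome 1, in RefSeq order, were read after the C57Bl/6J difference of Fcer1g had been seen. Of 19 genes listed from Dusp12 to Ppox, 12 had a tested probe set, and 3 were called in C57Bl/6J against the other 5 strains, 1 higher (Fcer1g) and 2 lower. The lower genes were Pcp4l1, 4 genes before Fcer1g, which fell by 4.05 ± 0.34 (limma adjusted p = 3.41e-06), and Cfap126, which fell by 0.49 ± 0.13 (0.0413). Apoa2, next to Fcer1g, differed by -0.01, Adamts4 by -0.01, B4galt3 by 0.02, Sdhc by -0.03 and Ppox by 0.28, and none of these passed the test. The nearest tested genes on either side of Fcer1g thus had no called difference in the strain in which it was 1.54 higher.

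Of 13 red cell genes other than globins, 1 was called higher and 2 lower in C57Bl/6J against the other 5 strains (median -0.10; 4.39% and 2.15% of all genes). The lower ones, Klf1 and Add2, averaged 4.44 and 5.55 in GLOBINclear RNA of C57Bl/6J and between 6.56 and 8.33 in the other strains, while the higher one, Tspo2, averaged 11.10 in C57Bl/6J and between 6.98 and 8.82 in the others (limma F test, adjusted p = 0.00247, 0.00174 and 0.00029).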
